A study of Mus musculus with 2 samples.

Results

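The reproducible antisense contigs of embryonic mouse liver are stretches of continuous RNA signal that lie opposite an annotated gene. A contig was taken when its irreproducibility value was at most 0.01, when it overlapped an ENSEMBL gene span of the mm9 genome by at least 1 base on the opposite strand, and when it overlapped none on its own strand. The irreproducibility value is the authors' score per contig, low where both replicates carry the signal. In all, 191153 of 602461 contigs (31.7%) passed this threshold, and 7189 of them were antisense by the rule, which is 3.76% of the reproducible contigs (95% exact binomial interval 3.68% to 3.85%). The other reproducible contigs comprised 153445 on the sense strand of genes alone, 19400 outside gene spans and 11119 over genes of both strands. The members were selected on the irreproducibility value, which falls as the level rises, and on their position relative to gene spans, so their levels, lengths and positions are a description, with no test.

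The libraries were stranded paired-end polyA+ RNA-seq of whole C57BL/6J liver at embryonic day 14, made from RNA above 200 nucleotides of pooled male and female littermates. The series holds 1 group of 2 libraries, labelled biological replicates 1 and 2, with no treatment, mutant or second tissue. Gene tables on the newer mm10 genome assigned 97174777 estimated fragments to replicate 1 and 149348514 to replicate 2. Each contig carries 1 level for both replicates together, whereas gene RPKM values and junction reads are listed per replicate in columns that no label ties to a library. They are called the first and second replicate columns here. A tissue of this age is a mixture of blood-forming, mostly erythroid, cells with immature hepatocytes and stroma, so fewer cells of a type and less RNA per cell cannot be told apart.

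Antisense transcription produces RNA from the strand opposite a gene. It can start at a promoter shared head to head with the gene, at a promoter of its own inside the gene, or run in from a neighbouring transcript. Imprinted loci hold the best-known mammalian examples, such as Kcnq1ot1 and Airn, long antisense RNAs that silence neighbouring genes on the chromosome that expresses them. In stranded sequencing, a small share of fragments from abundant RNAs may also be read from the wrong strand, which gives a weak mirror of highly expressed genes.

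The promoters below are those of genes discussed here, printed without the positions of the antisense contigs. They comprise the start of Kcnq1ot1, annotated opposite Kcnq1, the gene that faced the longest member. Next are the starts of the 4 sense genes with a RefSeq window that faced the highest head-to-head members of at least 200 bases. The last is the start of Tuba1c, a highly expressed tubulin gene with a weaker head-to-head member. The windows run from 250 bases before to 50 bases after each start, on GRCm38.p6, 5′ to 3′ on the gene's strand, from RefSeq. Capitals mark CG dinucleotides, which are dense in CpG island promoters.

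Kcnq1ot1: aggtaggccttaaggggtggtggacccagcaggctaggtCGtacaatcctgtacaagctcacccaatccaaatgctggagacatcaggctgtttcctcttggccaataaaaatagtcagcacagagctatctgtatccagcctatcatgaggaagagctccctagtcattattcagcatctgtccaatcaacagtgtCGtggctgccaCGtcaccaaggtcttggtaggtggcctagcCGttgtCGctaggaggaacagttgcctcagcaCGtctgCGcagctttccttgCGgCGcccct
Gorasp2: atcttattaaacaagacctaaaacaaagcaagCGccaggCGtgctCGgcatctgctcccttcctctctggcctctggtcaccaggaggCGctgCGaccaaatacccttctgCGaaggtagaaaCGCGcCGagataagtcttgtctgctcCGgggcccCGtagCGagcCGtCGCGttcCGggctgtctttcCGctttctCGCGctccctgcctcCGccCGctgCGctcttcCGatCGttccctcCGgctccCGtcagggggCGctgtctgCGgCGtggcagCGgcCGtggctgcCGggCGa
Kpnb1: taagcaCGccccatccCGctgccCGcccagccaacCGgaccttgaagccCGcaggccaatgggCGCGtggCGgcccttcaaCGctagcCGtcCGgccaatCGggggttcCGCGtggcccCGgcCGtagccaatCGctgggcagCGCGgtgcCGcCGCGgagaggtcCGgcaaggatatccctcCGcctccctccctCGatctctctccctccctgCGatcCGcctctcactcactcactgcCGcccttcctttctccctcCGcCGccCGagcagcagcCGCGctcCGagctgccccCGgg
Cpsf2: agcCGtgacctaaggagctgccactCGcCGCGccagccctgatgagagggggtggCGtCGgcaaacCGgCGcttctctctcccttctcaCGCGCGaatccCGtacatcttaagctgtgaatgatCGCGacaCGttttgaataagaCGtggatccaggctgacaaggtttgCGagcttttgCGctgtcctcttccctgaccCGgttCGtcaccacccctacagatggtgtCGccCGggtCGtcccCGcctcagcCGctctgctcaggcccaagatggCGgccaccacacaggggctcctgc
Pspc1: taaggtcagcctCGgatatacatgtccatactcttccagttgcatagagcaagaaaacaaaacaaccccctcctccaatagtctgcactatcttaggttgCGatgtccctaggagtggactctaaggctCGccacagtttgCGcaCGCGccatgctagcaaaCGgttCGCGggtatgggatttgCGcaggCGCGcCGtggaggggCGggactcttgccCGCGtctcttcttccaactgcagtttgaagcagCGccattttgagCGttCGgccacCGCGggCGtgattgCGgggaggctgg
Tuba1c: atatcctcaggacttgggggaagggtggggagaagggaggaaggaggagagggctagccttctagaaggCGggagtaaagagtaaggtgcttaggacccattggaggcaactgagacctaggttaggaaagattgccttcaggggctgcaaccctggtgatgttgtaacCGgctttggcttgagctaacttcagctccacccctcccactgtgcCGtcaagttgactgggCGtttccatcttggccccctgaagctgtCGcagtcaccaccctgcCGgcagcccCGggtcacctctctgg

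The Kcnq1ot1 window lies at chr7:143296498-143296797 on the minus strand, Gorasp2 at chr2:70661259-70661558 on the plus strand, Kpnb1 at chr11:97187843-97188142 on the minus strand, Cpsf2 at chr12:101975724-101976023 on the plus strand, Pspc1 at chr14:56778269-56778568 on the minus strand and Tuba1c at chr15:99029641-99029940 on the plus strand. The CG count was 35 in Kpnb1, 33 in Gorasp2, 26 in Cpsf2, 23 in Pspc1, 9 in Kcnq1ot1 and 7 in Tuba1c, against a median of 7 (quartiles 3 and 20) over the first window of each of 27025 gene symbols. TATAAA, searched on both strands, was in none of the 6 windows and in 14.1% of all windows. GGGCGG on either strand was in Gorasp2, Kpnb1 and Pspc1 and in 35.6% of all windows. CCAAT on either strand was in Kcnq1ot1, Kpnb1, Pspc1 and Tuba1c and in 37.8% of all windows. A match is a description of these letters and not a binding site. Windows were matched for 669 of 959 head-to-head sense genes (69.8%), below the 80% needed, so the base composition of that set was not compared.

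Most members were short and weak. The level is the authors' signal value per contig, whose unit no header states. It had a median of 0.144 (quartiles 0.097 and 0.321) over the members, against 0.244 (0.103 and 1.08) over reproducible contigs on the sense strand alone and 0.126 (0.088 and 0.260) over those outside genes. The length had a median of 812 bases (quartiles 475 and 1418) among members, 904 bases on the sense strand and 807 bases outside genes. Both medians of the members lay nearer to those outside genes than to those on the sense strand. A level of at least 1 was reached by 820 members (11.4%), by 26.4% of the sense contigs and by 9.77% of the contigs outside genes. Lengths ran from 13 to 44693 bases, with 44 members of 10000 bases or more.

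**Figure D1:**
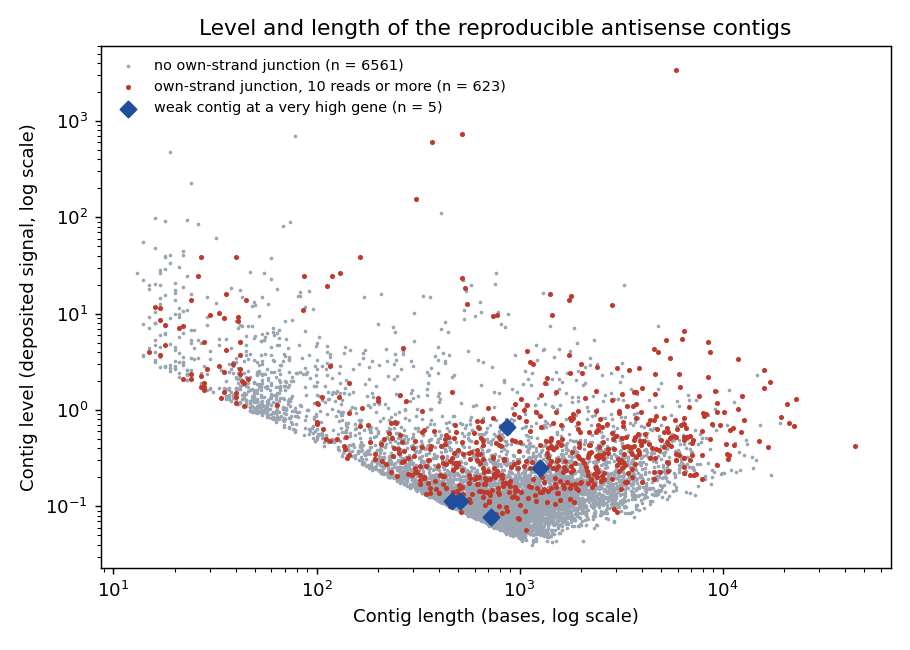
Level against length of the 7189 members, both on log scales, with 1 point per contig. Red points are the 623 members with an own-strand splice junction of at least 10 reads, blue diamonds the 5 weak contigs opposite genes of at least 100 RPKM, and the straight lower left edge is where the product of level and length in kilobases is at its lowest value of 0.0445.

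The straight lower edge of this cloud follows the product of level and length. Among members the product, with length in kilobases, was never below 0.0445 and had a median of 0.104. Among the 48653 antisense contigs above the threshold its median was 0.00819, and 202 of them (0.415%) reached the members' lowest value. Short members therefore had high levels. Of the members, 5567 had an irreproducibility value of 0 and 1622 a value of 0.01, and the deposited steps of 0.01 allow no finer rank. The members at 0.01 had a median level of 0.098 and a median length of 533 bases, against 0.090 and 451 bases for the 1482 antisense contigs just outside, at 0.02. Among the many ties at 0.01, members with the lowest levels had 0.040 at 1157 bases opposite Lctl and 0.042 at 1165 bases opposite Vopp1. Among those at 0.02, the 3 contigs with the highest level had 3.21 at 13 bases opposite Il19, 3.16 at 14 bases opposite Cplx2 and 2.90 at 15 bases opposite Rgs7bp. The ties were broken by level in opposite directions, so these 5 contigs mark extremes on each side and not a typical pair.

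The very highest levels belonged largely to short contigs. A level of 10 or more was reached by 106 members, of which 56 were under 50 bases and 27 had at least 200 bases. The 294 members under 50 bases had a median level of 2.95, whereas the 3559 members of at least 200 and under 1000 bases had a median of 0.120 and the 231 members of 5000 bases or more had 0.382. The highest member of all was a 5920-base contig at chr17:39979933-39985852 on the plus strand, with a level of 3410, opposite ENSMUSG00000045999, a gene the annotation used here gives no name. That gene was listed at 0.0146 and 0.0130 RPKM in the replicate columns, and no contig of its own strand overlapped the member. The contig carried 108 own-strand junctions with 5346 and 14720 reads in the replicate columns. Whether its reads come from a multi-copy RNA such as the ribosomal RNA precursor was not tested, so its level and junction reads are uncertain as values of this locus.

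The next highest members lay opposite introns. A 523-base contig within Jarid2, a Polycomb complex subunit, had a level of 738, while Jarid2 itself was listed at 2.38 and 2.71 RPKM. A 78-base contig within Il1rapl1, a gene for a synaptic adhesion receptor, had a level of 697 with the gene at 0.00952 and 0.00178 RPKM. A 372-base contig within Arhgap21 reached 603 with the gene at 2.60 and 4.98 RPKM. None of these 3 overlapped any exon base or any contig of the gene's strand.

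The remaining 6 of the highest 10 members were contigs of 19 bases at Ntn4 (level 471), 24 bases at Scn2a (225), 310 bases at Sspn (154), 411 bases at Tmem132d (110), 16 bases at Galnt10 (97.7) and 23 bases at St13 (94.5). Ntn4 encodes a netrin, Scn2a a sodium channel and St13 a cochaperone of heat shock proteins. Scn2a, Sspn and Tmem132d had sense RPKM values of at most 0.119 in either column. The Cufflinks gene models on the strand of the Jarid2, Arhgap21 and Sspn contigs had 102 and 78.4, 21.9 and 18.8, and 61.4 and 51.1 RPKM in the replicate columns, so signal was present in both at all 3. At the 24-base contig of Scn2a, which lay opposite an exon along its whole length, the model was listed at 0 in both columns. Whether reads of such compact contigs belong to near-identical copies elsewhere in the genome was not tested.

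Most genes opposite the members were above 0 RPKM, at low levels. Members faced 3920 of 37310 ENSEMBL genes (10.5%), and 97.5% of the members faced a single gene. The highest gene opposite each member had a median of 0.883 RPKM, with medians of 0.772 and 1.01 in the replicate columns (0.889 ± 0.165, SD, n = 2). The median was 0.00971 RPKM over all genes and 0.420 RPKM over the genes above 0. By the newer GENCODE M21 biotypes, 6531 members (90.8%) faced a protein-coding gene, and the share over all genes was not counted. Of the 3816 genes that were the highest opposite a member, 2472 faced 1 member and 272 faced 5 or more. The largest number, 56 members, lay opposite Gm20388, whose annotated span covers 4434882 bases, and 318 members (4.42%) faced 1 of 102 genes that span at least 500 kb. Next came Rfx3, a transcription factor gene of cilia, with 29 members, Arid5b with 24, Kansl1l with 22 and Nrp1, a receptor gene, with 19. Joined over gaps of at most 1000 bases, the members formed 5249 runs, of which 4225 held 1 member and 115 held 5 or more.

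The share of genes that faced a member was highest at middling expression. It was 1.59% of the 14192 genes at 0 RPKM, 8.87% of those above 0 and up to 0.1 RPKM, 18.5% between 0.1 and 1 RPKM and 22.7% between 1 and 10 RPKM (95% exact interval 21.8% to 23.7%). Above that it was 15.99% (14.3% to 17.8%) between 10 and 100 RPKM and 7.14% (3.32% to 13.1%), or 9 of 126 genes, between 100 and 1000 RPKM. None of the 8 genes above 1000 RPKM faced a member, which allows a share of up to 36.9%. These bins also differ in size of gene, with median spans of 0.602 kb at 0 RPKM, 21.4 kb between 1 and 10 RPKM and 1.52 kb between 100 and 1000 RPKM, and the part of span in the shares was not tested.

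**Figure D2:**
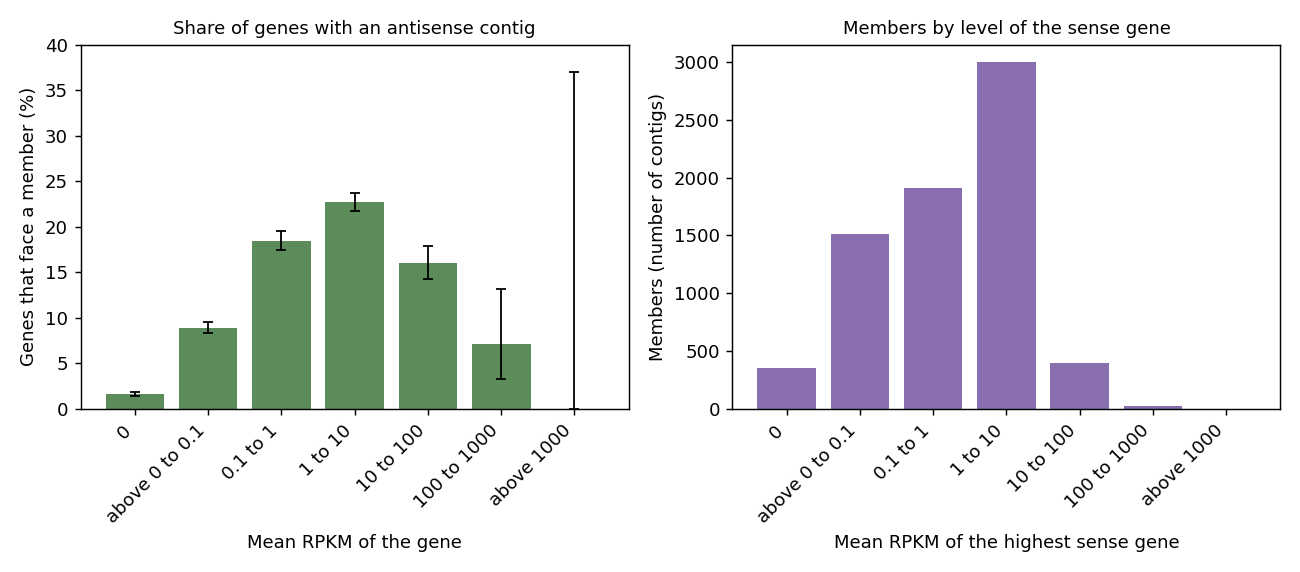
Left, percentage of genes that face a member in each bin of mean RPKM of the gene, with 95% exact binomial intervals as error bars. Right, number of members by the mean RPKM of the highest gene opposite; the share peaks at 22.7% and the number at 2999, both between 1 and 10 RPKM.

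Member levels differed little between bins of the gene opposite. The median member level was 0.131 opposite genes above 0 and up to 0.1 RPKM, 0.132 between 0.1 and 1 RPKM, 0.159 between 1 and 10 RPKM, 0.192 between 10 and 100 RPKM and 0.173 between 100 and 1000 RPKM. Over all 7189 members Spearman's rank correlation between level and sense RPKM was 0.10, and that between length and sense RPKM was -0.00; members share both libraries and the threshold, and this is a description across contigs. A member exceeded the RPKM value of its sense gene in 2388 cases (33.2%), but the unit of the level is not stated, so this count compares scales that may differ.

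A direct comparison on 1 scale sets each member against the highest opposite-strand contig that it overlaps. For 1737 members (24.2%) there was no such contig. For the other 5452, the member's level was a median of 42.5% of the opposite contig's level (quartiles 11.7% and 147%), and 1822 members (33.4%) were above it. The median percentage was 317% opposite genes at 0 RPKM, 135% up to 0.1 RPKM, 52.3% up to 1 RPKM, 26.0% up to 10 RPKM and 9.65% up to 100 RPKM. Between 100 and 1000 RPKM it was 52.2% over 19 members, of which 7 were at or below 1%. That 52.2% was the value of members opposite Gm15710, the gene with the most members in this bin. Gm15710 was listed at 117 and 154 RPKM, but the contigs opposite its members had levels of 0.061 to 0.322. The level of the opposite contig is the divisor of the percentage, whereas the bins use the RPKM of the gene on that strand. Both come from the sense strand in the same libraries, so the percentage and the bins are not independent measures. Only 55 members in all (1.01%) were at or below 1% of the opposite contig.

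**Figure D3:**
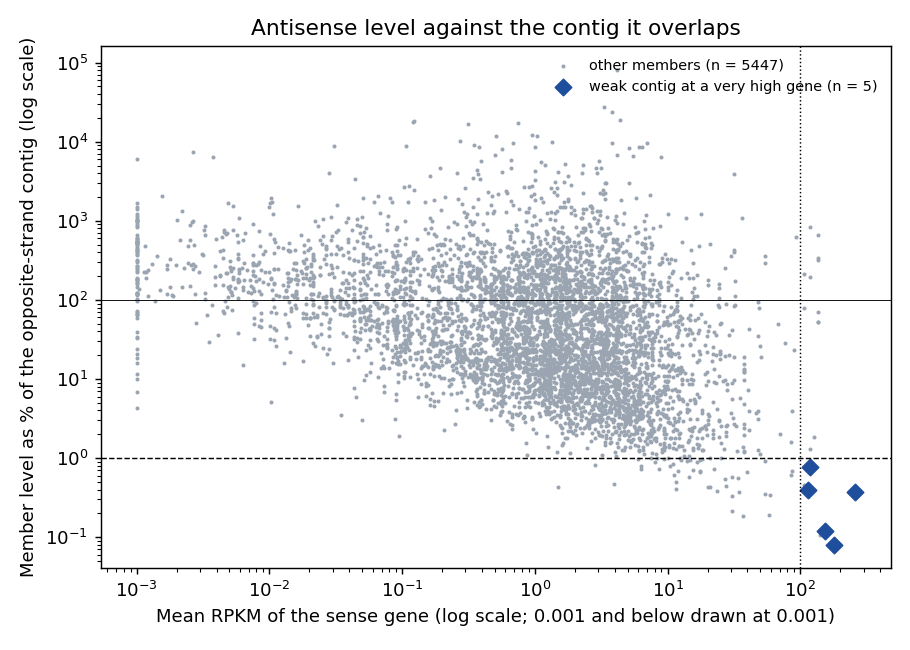
Level of each member as a percentage of the highest opposite-strand contig it overlaps, against the mean RPKM of the sense gene, both on log scales (5452 members). The dashed line marks 1%, the dotted line 100 RPKM and the thin line equal levels; the 5 blue diamonds are the weak contigs opposite genes of at least 100 RPKM, and most other members lie above 1%.

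Contigs that are weak against a very high gene, where mirror signal would be sought, were separated by 3 conditions, at least 50% of the member's bases under opposite-strand contigs, a level of at most 1% of the highest of these, and a sense gene of at least 100 RPKM. Of the 21 members opposite the 9 genes of at least 100 RPKM that faced any, 5 met them. The member at Hspa8, which encodes the constitutive heat shock chaperone, spanned 871 bases (chr9:40608265-40609135, minus strand) at a level of 0.659, or 0.374% of the opposite contig's 176. Its sense gene was listed at 224 and 289 RPKM. Its 5′ end lay 68 bases inside the start of Hspa8, and 7.92% of its bases were in exons of the opposite strand.

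The member at Slc4a1, the anion exchanger of the red cell membrane, had 511 bases at a level of 0.113, or 0.0807% of the opposite contig's 140, with the gene at 158 and 201 RPKM. The members at Rpl37rt, Hnrnpf and Rpl13a, genes of ribosomal proteins and of an RNA-binding protein, had levels of 0.077, 0.112 and 0.247, which were 0.119%, 0.767% and 0.390% of the contigs opposite. The last 4 of these 5 members overlapped no annotated exon of the other strand. None of the 5 had an own-strand junction of at least 10 reads. Whether they are mirror signal was not tested.

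The other 16 members opposite genes of at least 100 RPKM did not meet the conditions. At Hemgn, an erythroid nuclear protein listed at 93.6 and 119 RPKM, 4 members lay along the gene with levels of 0.091 to 0.252, and their percentages of the opposite contig were 0.462%, 79.8% and 212% where there was one. At Hnrnpf the 3 members beside the one above had 1.29%, 194% and 846%. At Gm15710, with an annotated span that holds 7 members, the strongest was a 1919-base contig with a level of 4.96 and no opposite contig. At Eif5a, a translation factor, a 574-base member had 0.107% of the opposite contig's 153 but 3.31% of its bases under it, with its 5′ end 262 bases inside the gene. At Tuba1c a 1969-base member had a level of 0.326, or 1.86%, and its 5′ end 301 bases inside the gene.

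The highest genes of the tissue faced few contigs of any irreproducibility value. No contig lay opposite Hba-a1 (2221 and 13807 RPKM), Hba-a2, Hbb-bs or Hbb-bt, the adult globins, nor opposite Alb, Afp or H19. The contig on the sense strand of Hbb-bs had a level of 7460, and the lowest level listed in the whole contig table was 0.018. Of the 16 genes at 300 RPKM or more, 12 had no opposite contig and none had a member.

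Splice junctions gave a measure that the rule did not use. A junction was assigned to a member when it lay on the member's strand, had at least 1 end in or touching the member and had at least 10 reads over both replicates. Such a junction was found at 623 of 7189 members (8.67%, interval 8.03% to 9.34%), against 45.5% of all reproducible contigs, 50.6% of those on the sense strand alone and 9.68% (9.26% to 10.1%) of those outside genes. Members with junctions had a median level of 0.406 and a median length of 1167 bases, and those without had 0.134 and 803 bases. Among members of 5000 bases or more, 89 of 231 (38.5%) had one, compared with 84.8% of sense contigs and 35.0% of contigs outside genes of that length. Antisense contigs above the threshold had one in 0.980% of cases.

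The 1000 junctions at members carried 28593 and 49453 reads in the replicate columns, and 966 of them (96.6%) had reads in both. The chr17 contig of level 3410 alone had 108 of them, with 5346 and 14720 reads. The pair at Gm12896 and Gm12895 had 1608 and 2174 reads. The assignment of these reads is uncertain, and they are kept in the totals and in the ratio that follows. The median log2 ratio of second to first column was 0.74 (quartiles 0.10 and 1.44), against 0.50 for the totals of all junction reads, which were 80752918 and 114217023 reads. The 0.50 is a ratio of sums and not a median over junctions, so the 2 values are unlike measures. An irreproducibility value of at most 0.01 was listed for 555 of the 1000 junctions. Both ends lay at members for 537 junctions, 212 had an end in an annotated gene of the same strand, and 251 reached outside members and genes. None of the 1000 was also listed at the same positions on the other strand, which allows a share of up to 0.368%. Over the whole table this held for 2 of 178166 junctions of at least 10 reads (0.00112%), so the count at members lies at the background.

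The member with the most junction reads outside the chr17 contig lay opposite Cpsf2, a subunit of the factor that cleaves and polyadenylates messenger RNA. It spanned 8435 bases at chr12:103206299-103214733 on the minus strand, at a level of 5.05, or 4.95-fold the opposite contig. Its 5′ end lay 549 bases inside the start of Cpsf2, which was listed at 2.29 and 2.94 RPKM. An intron of 1282 bases had 2718 and 3179 reads, and an intron of 6022 bases had 2556 and 3072 reads. A second form of the longer intron, 3 bases longer, had 434 and 593 reads. The newer GENCODE M21 annotation lists Ndufb1-ps, classed as a bidirectional promoter long noncoding RNA and 8979 bases long, on the strand opposite Cpsf2.

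A pair of contigs of 119 and 113 bases opposite Gm12896 and Gm12895, both listed at 0 RPKM, shared the same 3 junctions, with 1608 and 2174 reads, whose introns of 261630 to 261632 bases joined the contigs to each other. Gene models of this kind can be near-identical copies, so the assignment of these reads is uncertain. Opposite Ntn4, a 2020-base contig with a level of 2.42 carried 5 junctions with 733 and 1096 reads. Opposite Scaf8, a 5508-base contig with a level of 3.47 carried introns of 715, 840 and 241 bases with 154 and 288, 158 and 266, and 199 and 247 reads.

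Cufflinks gene models built from the data gave a second measure per replicate. Of the members, 3110 (43.3%) overlapped a model on their own strand. Among the 2341 models taken, 2029 were above 0 RPKM in both columns, and for 1550 of these (76.4%) the columns were within 2-fold, against 82.6% of the ENSEMBL genes above 0 in both. The median log2 ratio of second to first column was 0.27 (quartiles -0.17 and 0.65) for the models, compared with 0.41 (0.23 and 0.65) for the genes. The medians of the models were 0.0224 and 0.0257 RPKM.

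A larger share of members than of other antisense contigs lay at the start of the sense gene. The 5′ end of 985 members (13.7%, interval 12.9% to 14.5%) lay within 1000 bases inside the sense gene's start, against 2570 of 48653 antisense contigs above the threshold (5.28%, 5.09% to 5.48%). Members covered the start of the sense gene in 973 cases (13.5%) and its end in 355 cases (4.94%), whereas antisense contigs above the threshold did so in 1.20% and 0.787% of cases. Longer contigs reach an end more often, and contigs above the threshold were shorter, with a median of 173 bases. The midpoints fell in the first 10% of the gene's span for 790 members and in the last 10% for 907, and each of the 8 steps between held 502 to 771. A further 707 members had their midpoint before the start and 179 past the end. In 4212 members (58.6%) no base lay opposite an exon, and 262 (3.64%) lay entirely opposite exons, against 86.8% and 5.97% of the antisense contigs above the threshold.

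**Figure D4:**
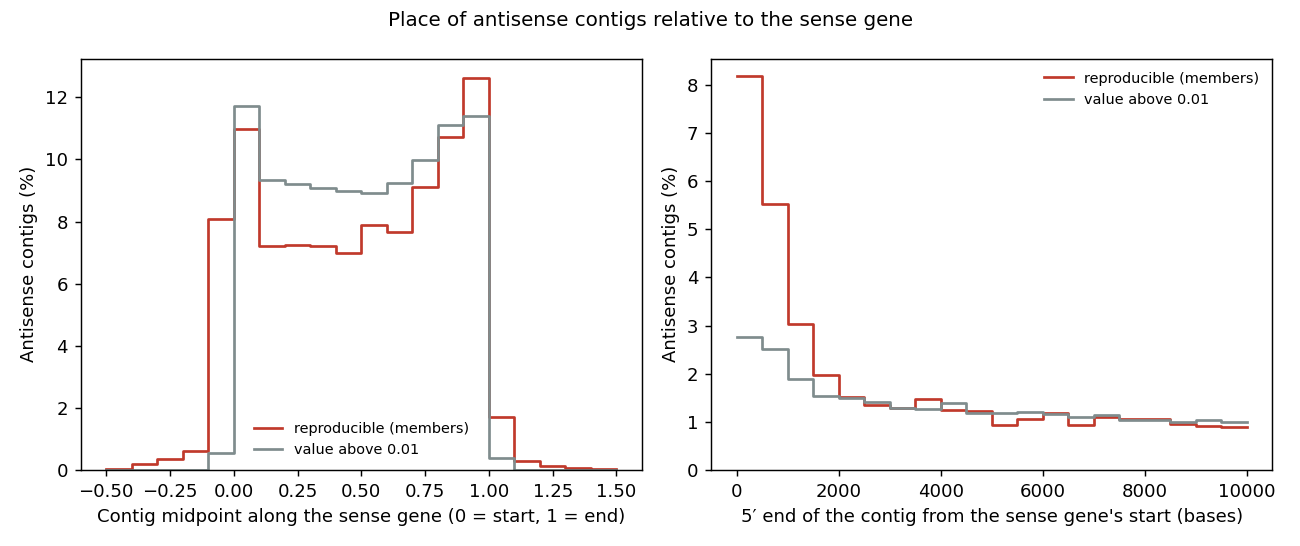
Left, midpoints of antisense contigs along the sense gene in steps of 0.1 of its span, from 0 at its start to 1 at its end. Right, distance of the contig's 5′ end from the sense gene's start in steps of 500 bases; the share of members (red) is 8.18% in the first step, against 2.77% of antisense contigs with a value above 0.01 (grey).

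Head-to-head members, those 985 with a 5′ end in the first 1000 bases, had a median level of 0.197 (quartiles 0.115 and 0.410) and a median length of 1074 bases, against 0.138 (0.095 and 0.304) and 785 bases for the other members. Their sense genes had a median of 1.83 RPKM (1.62 and 2.05 in the columns), against 0.757 RPKM (0.627 and 0.855), and 66.1% of them were at 1 RPKM or more, against 44.6%. An own-strand junction was present at 10.8% (8.89% to 12.9%) of them and at 8.33% (7.66% to 9.05%) of the others. These intervals overlapped only between 8.89% and 9.05%, and the 2 shares were not tested against each other.

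The strongest head-to-head member of at least 200 bases was a 3253-base contig opposite C530008M17Rik (chr5:77084235-77087487, minus strand), with a level of 19.9, no opposite contig and 56.7% of its bases facing exons. The sense gene was listed at 1.67 and 2.31 RPKM. GENCODE M21 places A730089K16Rik, 2427 bases long, opposite this gene, and it had 14.9 and 18.8 TPM in replicates 1 and 2. Next in level were the members at Gorasp2, a Golgi stacking protein (846 bases, level 7.23, 1.37-fold its opposite contig), Kpnb1, the nuclear import receptor importin beta (2326 bases, 5.36, 39.4%), Cpsf2, Gm10222 (1313 bases, 4.27, 6.25-fold, sense gene at 78.3 and 106 RPKM) and Pspc1, a paraspeckle protein (1312 bases, 4.23, 58.0%). At Gm10222 the opposite contig had a level of only 0.683 despite the RPKM of the gene, so the 6.25-fold is uncertain. Whether reads there belong to near-identical copies elsewhere in the genome was not tested. The 5′ ends at Gorasp2, Kpnb1, Cpsf2 and Pspc1 lay 517, 190, 549 and 728 bases inside the sense genes, downstream of the starts whose windows are printed above.

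A member could also continue a transcript of its own strand. An annotated gene of the same strand ended within 5000 bases upstream of 1117 members (15.5%, interval 14.7% to 16.4%), and for 722 of these members that gene was at 1 RPKM or more. Among antisense contigs above the threshold the share was 9.04% (8.79% to 9.30%). Smim1, which encodes a small red cell membrane protein, faced such a member. It spanned 20724 bases, started 1156 bases past the end of Lrrc47 (8.89 RPKM), had a level of 1.16 and 287 and 529 junction reads, and lay opposite a gene of 37.5 and 58.1 RPKM.

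Of the 5 longest members, 4 lay opposite genes below 1 RPKM. A 23006-base contig with a level of 1.31 lay opposite Zfhx2, a homeodomain gene at 0.0416 and 0.0369 RPKM, and carried 7 junctions with 150 and 217 reads. GENCODE M21 lists Zfhx2os, 22005 bases long, opposite Zfhx2, and the mm10 tables give it 1.76 and 1.72 TPM in replicates 1 and 2. A 22509-base contig with a level of 0.683 lay opposite Itpr2, a calcium release channel at 0.144 and 0.347 RPKM, with 64 and 104 junction reads. A 21246-base contig opposite ENSMUSG00000090409 had a level of 0.725.

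Kcnq1, a potassium channel gene, faced the longest member of all. Kcnq1 was listed at 0.0375 and 0.0639 RPKM (0.0507 ± 0.0187, SD, n = 2) and faced 13 members with levels of 0.090 to 1.63. Of these, 11 formed an almost continuous run at chr7:150389109-150482469 on the minus strand, which covered 98.7% of 93361 bases with gaps of at most 695 bases. The longest member made up 44693 bases of its 5′ part at a level of 0.421, and the mean level over the run, weighted by length, was 0.339. All 8 members that overlapped a contig of the Kcnq1 strand were above it, by 1.90-fold to 6.33-fold. Over the run, the Kcnq1 strand held 24 contigs with 6.40 kb in all and levels of 0.020 to 0.221, none of them reproducible.

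Kcnq1ot1 spans 93092 bases on the minus strand in GENCODE M21 and had 0.25 and 0.26 TPM in replicates 1 and 2. Only 2 of the 11 members of the run had a junction of at least 10 reads, with 12 reads (5 and 7) and 15 reads (4 and 11). The 2 members outside the run were a 41-base contig with a level of 1.63 and a 1179-base contig with a level of 0.111.

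**Figure D5:**
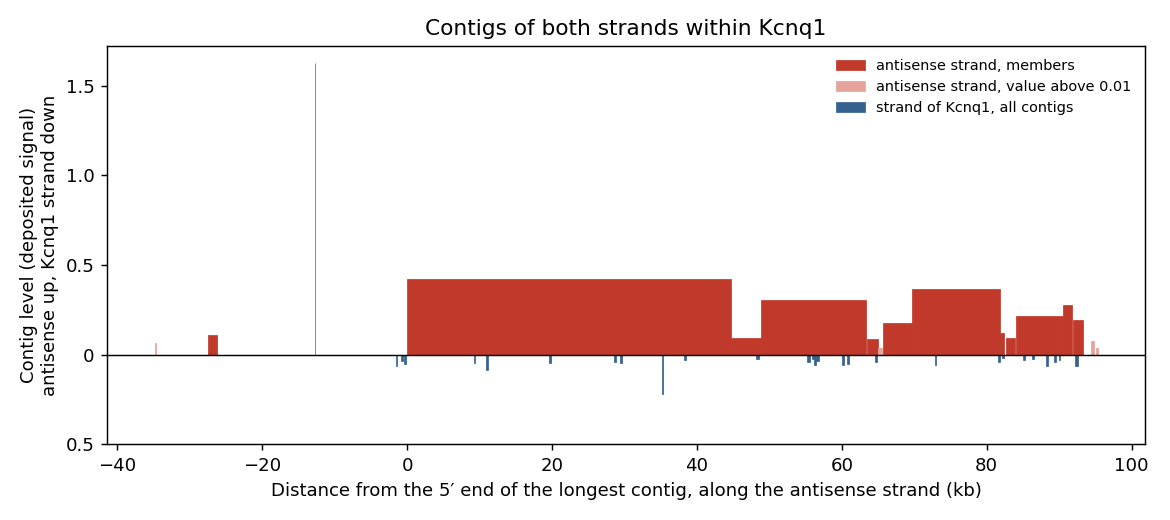
Contig levels on both strands along Kcnq1, by distance in kilobases from the 5′ end of the longest member in its direction of transcription. Members (red) stand above the zero line and cover 98.7% of the run, and contigs of the Kcnq1 strand (blue), drawn below the line, reach at most 0.221 over it.

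Other imprinted loci held fewer members. Gnas, which encodes the stimulatory G protein alpha subunit and was listed at 43.3 and 58.1 RPKM, faced 1 member of 6091 bases (chr2:174146954-174153044, minus strand) at a level of 2.34, or 19.2% of the opposite contig. Its 3 junctions carried 250 and 367 reads, over introns of 1466, 1928 and 995 bases. The Gnas antisense RNA Nespas had 0.97 and 1.19 TPM in replicates 1 and 2. The mm9 annotation holds Nespas as well, so by the rule this member did not overlap it. The member started 2775 bases past the end of Gm20721, a gene of its own strand at 0.216 RPKM. Whether it continues Gm20721 was not tested.

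Copg2, a coatomer subunit gene next to Mest, faced 4 members at chr6:30752812-30758839 on the plus strand with levels of 0.324, 0.439, 1.36 and 1.07, all of them 2.52-fold to 19.1-fold the contig opposite. Along the plus strand the weaker pair came first. Ube3a, a ubiquitin ligase gene, faced 2 members at levels of 0.197 and 0.204, or 11.6% and 43.2% of the contigs opposite, 1 of which had its 5′ end 382 bases inside the gene. GENCODE M21 lists the long transcript Snhg14 on the strand opposite Ube3a at chr7:59307924-59975759, and it had 1.62 and 2.16 TPM. It also lists 9330162G02Rik, Gm44562, Gm44559 and Gm44560 there, at lower coordinates and with no TPM value. Which of these, if any, the Ube3a members belong to was not tested. Airn itself faced a single 359-base member at a level of 0.146. No member lay opposite Igf2r, Rtl1, Peg3, Mest, Xist, Tsix, Grb10, Dlk1 or Meg3. At Igf2r 6 reproducible contigs on the opposite strand were left out by the rule because they also overlapped a gene of their own strand, and the same held for 19 at Airn, 3 at Gnas, 3 at Rtl1, 6 at Tsix and 1 at Copg2.

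GENCODE M21 lists RNAs opposite many of the sense genes. Of 3816 highest sense genes, 3693 were in GENCODE M21, and 906 had an M21 gene on the opposite strand that the mm9 table lacks. The share over all genes was not counted, so the number does not set these sense genes apart. The opposite M21 genes that the mm9 table lacks numbered 1335, with 463 antisense genes and 112 long intergenic RNAs among them. TPM values were listed for 561, and 115 were at 0.1 TPM or more in both libraries. Coordinates were not carried between builds, so these pairs rest on the shared sense gene and not on the contig itself. Both of the following pairs had spliced members, and were chosen after their values were seen. At AA986860 a 1750-base member had a level of 3.70 and 192 and 283 junction reads, and the opposite Gm28857 had 6.40 and 5.58 TPM. At Gapdhs, a sperm glycolytic enzyme gene listed at 0 RPKM in both columns, 6 members had levels of 0.110 to 2.99, and the opposite Tmem147os had 3.46 and 3.40 TPM.

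Some genes that mark the cell types of the tissue faced a member. Of 28 erythroid genes with a match, 7 faced a member (25.0%), and of 6 endothelial genes 2 did, Stab1 and Kdr, against 21.3% of the 9295 genes at 1 RPKM or more. Of 30 hepatocyte genes 1 did, Itih2 (3.33%), and none of 8 macrophage, 6 megakaryocyte, 7 neutrophil and 5 mesenchymal genes did. The lists differ in level, with a median of 58.1 RPKM for the erythroid, 106 RPKM for the hepatocyte and 3.81 RPKM for the endothelial genes, against 3.75 RPKM for all genes at 1 RPKM or more. Over all genes the share facing a member was 22.7% between 1 and 10 RPKM, 15.99% between 10 and 100 RPKM and 7.14% between 100 and 1000 RPKM. These lists are small, and no test was made. Sptb, the red cell spectrin beta chain gene at 13.2 and 16.6 RPKM, faced 4 members with levels of 0.092 to 0.305, and Fech, the last enzyme of heme synthesis, faced 1 with 0.452, or 1.60% of the contig opposite.

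Gata1, the erythroid transcription factor at 19.3 and 22.3 RPKM, faced 5 members. Their levels were 0.234, 0.1, 0.297, 0.109 and 0.542 along the plus strand. The members at 0.234 and 0.1 lay wholly under an opposite contig of level 23.1, at 1.01% and 0.433% of it. Whether they are mirror signal was not tested. The member at 0.297 was at 512% of an opposite contig of 0.058, and those at 0.109 and 0.542 had none. The strongest Gata1 member, of 2997 bases, had its 5′ end 1847 bases inside the start of Gata1. It carried a junction of 53 and 94 reads with an intron of 10018 bases. Alad, the second enzyme of heme synthesis, faced 2 members at 0.217% and 0.571% of its sense contig. Ank1, which encodes the ankyrin of the red cell membrane and was listed at 17.9 and 17.6 RPKM, faced a 9162-base member with a level of 1.01, or 12.2-fold the opposite contig, and a 4287-base member with a level of 0.709.

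The Ank1 contig was 1 of 5 named for the highest ratio to the contig opposite among members with a level of at least 1 at genes of at least 10 RPKM. The others were shorter. They had 106 bases at Ccnd3, the cyclin D3 gene (level 2.84, 38.9-fold), 54 bases at 1300017J02Rik (6.18, 12.2-fold), 293 bases at Snx3, a sorting nexin gene (1.49, 10.96-fold), and 23 bases at Ell2, an elongation factor gene (24.4, 10.9-fold). None of the 5 faced an exon base, and none carried a junction of at least 10 reads.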

How the data were processed

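The 2 libraries form 1 group, and no comparison between groups was possible, so no test across samples was run. Per the file headers and the labels, the authors deposited contigs, junctions and gene tables on mm9 (ENSEMBL and Cufflinks models) and gene tables on mm10; no aligner or caller is named in the sources. The contig level was deposited as a signal for both replicates together, and the irreproducibility value as a score in a column with no name, read as such from its values. The authors deposited junction counts, with reads per replicate in the name field, and RPKM per replicate in attribute fields. They deposited TPM and expected counts per library on mm10, made with GENCODE M4 per the read-me texts deposited with each library; spike-ins are left out of the fragment totals here. The ENSEMBL table lists 37310 genes on 74620 lines, and each was used once.

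Overlaps used bedtools 2.31.1 and pandas 2.3.3, with the sense gene taken as the highest overlapped; exact binomial (Clopper-Pearson, 95%) intervals used scipy 1.17.1 and cover counting error only. The overlap steps were tested on simulated intervals. Of the mm9 genes, 32620 matched a symbol. Outside the class of weak contigs at very high genes the text names the 10 highest and 5 longest members, the 5 with most junction reads and the 5 highest over the opposite contig; within it the 5 highest sense genes; also 3 contigs on each side of the threshold, of which 1 is not reported here, and members at listed imprinted loci. Other named members, such as head-to-head and erythroid ones, were chosen after their values were seen. The members and lists were chosen with earlier results of these data known. Alternatives to the threshold, overlap, levels and read minimum were tried. Replicates come from the same donor entry, so their spread may be partly technical. No genome of the files' build was used here.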

Additional observations from a re-analysis of the deposited data

How the results depend on the processing

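No paired analysis was possible because the series holds 1 group. Widening the irreproducibility threshold to 0.1 gave 13453 members with a median level of 0.109 and a median length of 517 bases, and tightening it to 0.001 gave a median level of 0.165 and a median length of 987 bases. Leaving out members over a same-strand Cufflinks model gave 4079 members. Counting only levels of at least 1 gave a median level of 2.33, and leaving out members under 50 bases, an alternative chosen after seeing the data, gave 0.138. Requiring at least 50% of the contig in the overlap gave a median length of 749 bases. The 5 weak contigs at very high genes became 9 at 50 RPKM and 0 at 300 RPKM, and were 4 to 5 with 1 replicate column left out. Members with an own-strand junction numbered 1928 at 2 reads, 145 at 50 reads and 408 with junctions of a value of at most 0.01, and 563 to 829 with 1 column left out and at least 5 reads asked of the other. The median sense RPKM ranged from 0.772 to 1.01 with 1 column left out. The changes in threshold, overlap, length, level, read minimum and Cufflinks models widen or narrow the selection by their construction. The other alternatives left the values within 1.5 times the count or within the spread. Of 27 alternatives in all, 14 moved a value past these limits and 13 did not. The contig table gives no level per replicate, so member levels have no replicate check.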
